A study of Mus musculus with 8 samples.

Results

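A set of 10 enzymes of glucose breakdown, the glycolysis enzymes Hk1, Hk2, Gpi1, Pfkl, Aldoa, Tpi1, Gapdh, Pgk1, Pkm and Ldha, were followed across the blood-forming cells of mouse bone marrow. They are 10 of the 32285 genes in the deposited matrices and are listed by name, with no threshold on their values. Each of the 10 had transcripts in all 8 libraries. The study sorted lineage-negative, c-Kit-positive stem and progenitor cells from the bone marrow of 8 wild-type mice and made 1 single-cell RNA library per mouse, with 1 male and 1 female at 14 weeks (young), 50 weeks (middle-aged), 78 weeks for the male and 79 weeks for the female (old) and 95 weeks (very old). No mouse carried a transgene or received a treatment according to the labels. Transcripts were counted as unique molecular identifiers (UMIs), where each UMI stands for 1 captured RNA molecule. The 2 questions put to these matrices were whether stem cells and committed progenitors carry different amounts of these transcripts, and whether the amounts differ between ages.

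Glycolysis breaks glucose down to pyruvate in the cytosol. Hexokinases phosphorylate the sugar, glucose phosphate isomerase and phosphofructokinase prepare it for cleavage, and aldolase and triosephosphate isomerase yield the triose phosphates. Glyceraldehyde-3-phosphate dehydrogenase then oxidises the triose, phosphoglycerate kinase and pyruvate kinase return ATP, and lactate dehydrogenase turns pyruvate into lactate while restoring NAD+. Haematopoietic stem cells (HSC) are known for residing in a marrow with little oxygen and for relying on glycolysis more than on mitochondrial respiration when at rest, with hypoxia-inducible factors among the regulators of these genes. Red blood cells lose their mitochondria and depend on glycolysis, and they use pyruvate kinase from the gene Pklr in place of Pkm.

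Libraries held 83062003 to 150135029 UMIs each and a median of 8505 to 14951 UMIs per cell, and 59136 of 59465 cell barcodes had 200 or more detected genes and were kept. Between 6 and 27 barcodes were shared by any pair of libraries. Kit, the gene of the sorted c-Kit receptor, had a UMI in 55.7% to 69.0% of cells per library, while the T cell gene Cd3e and the neutrophil gene Ly6g each had one in at most 0.218% of cells in any library. Both very old mice come from another library series (SL20) than the other 6 mice (SL19), so the effect of that series cannot be told apart from very old age. The matrices came without cell types. Cells were therefore clustered without the glycolysis and other metabolic genes, and clusters were named from marker genes as HSC-like (4580 cells, 387 to 842 per mouse, led by Procr, Hlf, Ly6a and Meg3, with the stress gene Nupr1 and the cytokine gene Ltb also among its leading genes), multipotent progenitor-like (MPP-like, 5155 cells), granulocyte progenitor-like (7145), monocyte progenitor-like (5522), basophil and mast-like (1805), megakaryocyte-like (4718) and erythroid-like (9815). A neutrophil-like cluster of 47 cells was too small to enter the sums. All 15 HSC markers had UMIs in the HSC-like cells of every mouse, as they had in the erythroid-like cells of every mouse. Levels are given in CPM, the UMIs of a gene per 1000000 UMIs of the sum. The summed level of these markers was 1250 to 2133 CPM in HSC-like cells. It was 79.1 to 107 in the erythroid-like class and 51.2 to 77.3 in granulocyte progenitor-like cells. The same markers named the class, so these levels do not test the name. Between 26.4% and 41.3% of the cells of a mouse stayed unnamed and entered no comparison. Levels are CPM of the UMIs summed over all cells of a class in 1 mouse, so each class has 8 values, and a mouse, not a cell, is the replicate.

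Promoters are shown for 6 members that were called in a comparison below. Of these 5 were picked because they hold the core of the element bound by hypoxia-inducible factors, which is printed in capitals, and Gpi1 because it was called without holding it. Hk1, whose promoter 2 holds the core, and Tpi1 and Pfkl, whose promoters do not, were also called and are not printed. RefSeq on GRCm38.p6 gives 15 promoters for the 10 members, each 300 bases from 250 before to 50 after a transcription start. For this core only the letters ACGTG were searched, on either strand (CACGT when read on the printed strand). The palindrome CACGTG counts as 2 overlapping matches. The 6 printed are Ldha promoter 1 (chr7:46845554-46845853, + strand, 5 matches), Pgk1 (chrX:106186850-106187149, + strand, 2), Gapdh (chr6:125165724-125166023, − strand, 1), Hk2 (chr6:82774405-82774704, − strand, 2), Pkm promoter 2 (chr9:59656977-59657276, + strand, 2) and Gpi1 (chr7:34230287-34230586, − strand, 0), read 5′ to 3′ on the strand of the gene.
Ldha promoter 1: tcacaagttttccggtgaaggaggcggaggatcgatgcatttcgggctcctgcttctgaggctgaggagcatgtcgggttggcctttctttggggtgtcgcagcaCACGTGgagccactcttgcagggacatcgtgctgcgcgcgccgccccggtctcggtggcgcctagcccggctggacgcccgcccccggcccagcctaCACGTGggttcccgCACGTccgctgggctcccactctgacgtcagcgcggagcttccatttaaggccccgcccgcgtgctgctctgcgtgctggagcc
Pgk1: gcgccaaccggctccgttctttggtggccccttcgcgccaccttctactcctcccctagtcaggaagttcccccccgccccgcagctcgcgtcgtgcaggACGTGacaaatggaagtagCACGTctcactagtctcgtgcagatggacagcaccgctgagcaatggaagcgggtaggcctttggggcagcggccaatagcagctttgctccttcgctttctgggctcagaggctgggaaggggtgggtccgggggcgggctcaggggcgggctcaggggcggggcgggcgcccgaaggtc
Gapdh: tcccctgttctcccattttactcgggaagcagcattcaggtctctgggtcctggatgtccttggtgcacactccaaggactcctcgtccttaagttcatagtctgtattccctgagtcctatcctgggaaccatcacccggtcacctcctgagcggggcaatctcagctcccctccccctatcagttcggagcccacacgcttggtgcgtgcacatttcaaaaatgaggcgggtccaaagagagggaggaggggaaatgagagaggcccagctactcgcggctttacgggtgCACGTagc
Hk2: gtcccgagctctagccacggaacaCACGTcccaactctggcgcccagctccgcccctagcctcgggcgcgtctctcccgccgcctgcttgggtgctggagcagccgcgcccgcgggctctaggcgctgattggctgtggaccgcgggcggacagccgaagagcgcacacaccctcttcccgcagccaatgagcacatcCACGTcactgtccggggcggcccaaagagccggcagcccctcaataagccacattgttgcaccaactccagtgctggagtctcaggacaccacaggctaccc
Pkm promoter 2: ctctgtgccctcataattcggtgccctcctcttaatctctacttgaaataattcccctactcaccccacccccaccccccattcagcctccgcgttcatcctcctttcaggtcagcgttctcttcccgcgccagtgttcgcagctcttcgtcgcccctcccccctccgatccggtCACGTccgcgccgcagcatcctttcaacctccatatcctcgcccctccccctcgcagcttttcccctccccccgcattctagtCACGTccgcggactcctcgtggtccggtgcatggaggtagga
Gpi1: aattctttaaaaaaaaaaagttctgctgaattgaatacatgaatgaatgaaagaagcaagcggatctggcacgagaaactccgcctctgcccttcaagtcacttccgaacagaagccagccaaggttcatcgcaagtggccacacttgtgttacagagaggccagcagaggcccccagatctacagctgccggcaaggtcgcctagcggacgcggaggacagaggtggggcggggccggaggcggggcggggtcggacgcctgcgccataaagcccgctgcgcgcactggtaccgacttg
One or more matches occurred in 8 of the 15 promoters, from 7 of the 10 members (promoters 2 and 3 of Aldoa overlap and share the same match), against 19.6% of all 32851 mouse promoters of the same length. No match was found in the windows of Gpi1, Pfkl and Tpi1, nor in the other promoter of Pkm, of Ldha and of Hk1 and in 1 of the 3 of Aldoa. Among all promoters 8.21% held 2 or more matches and 0.183% held 5 or more, as Ldha promoter 1 did. The other letters searched, GATAA, the core read by GATA factors, occurred in 3 of the 15 windows and in 25.4% of all promoters. A match describes the letters in the window and says nothing of binding in these cells.

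The 2 hexokinases, which trap glucose in the cell as glucose 6-phosphate, had opposite extremes across the classes. Hk1 (ENSMUSG00000037012, chr10:62268855-62379908, − strand, GRCm38) was highest in erythroid-like cells at 112 ± 19.95 CPM (mean ± SD, n = 8 mice) and lowest in monocyte progenitor-like cells at 33.3 ± 3.25 CPM. In HSC-like cells Hk1 ranged from 61.3 to 78.8 CPM with a median of 65.2, below every basophil and mast-like value and above the MPP-like value of the same mouse in 8 of 8 mice. Hk2 (ENSMUSG00000000628, chr6:82725025-82774454, − strand) was highest in granulocyte progenitor-like cells at 47.3 ± 7.86 CPM and lowest in erythroid-like cells at 6.25 ± 3.03 CPM, with 31.2 ± 4.89 CPM in HSC-like cells. The 8 Hk2 values of HSC-like cells ran from 22.0 to 36.7 CPM and overlapped those of basophil and mast-like and of MPP-like cells, the neighbours in that order.

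Glucose-6-phosphate isomerase Gpi1 (ENSMUSG00000036427, chr7:34201330-34230336, − strand) showed a graded order in which each class lay above the next in all 8 mice. It went from 748 ± 91.2 CPM in granulocyte progenitor-like cells, whose values did not overlap those of any other class, through 312 ± 26.8 in HSC-like to 220 ± 47.9 in erythroid-like cells. Pfkl (ENSMUSG00000020277, chr10:77986947-78010083, − strand), the liver-type phosphofructokinase that commits sugar to the pathway, ran from 87.4 ± 13.8 CPM in MPP-like and 79.1 ± 14.3 CPM in HSC-like to 54.1 ± 9.35 CPM in erythroid-like cells, and all neighbours in its order overlapped. Aldolase Aldoa (ENSMUSG00000030695, chr7:126795234-126800751, − strand) lay at 338 ± 17.7 CPM in HSC-like cells, between 468 ± 37.2 in granulocyte progenitor-like and 250 ± 16.4 in megakaryocyte-like cells. Triosephosphate isomerase Tpi1 (ENSMUSG00000023456, chr6:124810586-124814296, − strand) was lowest in HSC-like cells at 227 ± 37.9 CPM and highest in monocyte progenitor-like cells at 359 ± 55.9 CPM.

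All 3 payoff enzymes peaked in monocyte and granulocyte progenitor-like cells. Gapdh (ENSMUSG00000057666, chr6:125161715-125166467, − strand), which oxidises glyceraldehyde 3-phosphate, reached 1961 ± 280 CPM in monocyte and 1814 ± 229 CPM in granulocyte progenitor-like cells, and 809 ± 91.0 CPM in HSC-like cells, the lowest of the 7 classes. No value of either myeloid class overlapped those of the other 5 classes. Gapdh has 178 genomic copies of near-identical sequence, 174 of them pseudogenes, and Aldoa 4, so reads from them cannot be fully told apart, although the copies present in the matrices held only 79 and 23 UMIs in all. Phosphoglycerate kinase Pgk1 (ENSMUSG00000062070, chrX:106187100-106203699, + strand), which makes the first ATP of the pathway, had 335 ± 31.1 CPM in monocyte progenitor-like, 171 ± 27.0 CPM in HSC-like and 152 ± 24.2 CPM in erythroid-like cells. Pyruvate kinase Pkm (ENSMUSG00000032294, chr9:59656368-59679375, + strand), which makes pyruvate, divided the classes into erythroid-like cells at 33.7 ± 10.5 CPM and all other classes at 251 ± 34.2 CPM or more, with 399 ± 57.1 CPM in HSC-like cells. The 8 erythroid-like Pkm values (17.7 to 46.4 CPM) did not overlap those of any other class.

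Lactate dehydrogenase A, Ldha (ENSMUSG00000063229, chr7:46841475-46855627, + strand), followed a different order from the payoff enzymes, since erythroid-like cells at 676 ± 117 CPM and megakaryocyte-like cells at 657 ± 59.8 CPM stood beside the myeloid classes. HSC-like cells held 369 ± 69.4 CPM, the lowest mean, with 263 CPM in the lowest, 350 CPM in the median and 482 CPM in the highest mouse. Every erythroid-like value (514 CPM or more) lay above every HSC-like value. MPP-like cells at 436 ± 94.6 CPM overlapped HSC-like cells, although Ldha was lower in HSC-like cells in 7 of 8 mice.

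**Figure D1:**
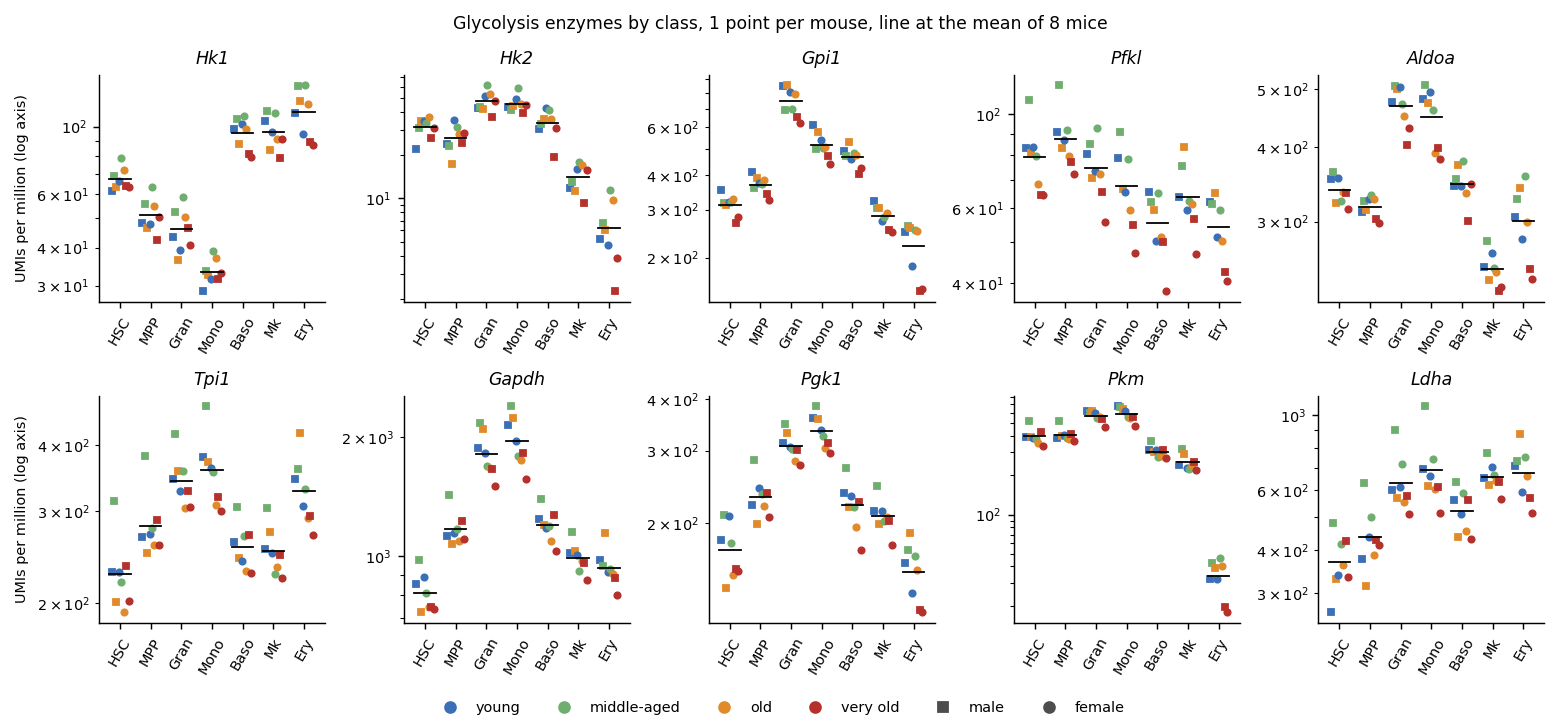
Level of each of the 10 glycolysis enzymes (CPM, log axis) in 7 cell classes, with 1 point per mouse (n = 8, coloured by age, squares male and circles female) and a line at the class mean. Pkm in erythroid-like cells (17.7 to 46.4 CPM) lies apart from all other classes, and Gapdh is highest in monocyte and granulocyte progenitor-like cells.

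Summed over the 10 members, HSC-like cells held 2805 CPM on average (2518 to 3395) and erythroid-like cells 2819 CPM (2245 to 3463), against 5053 CPM in monocyte and 5050 CPM in granulocyte progenitor-like cells. The cells also differ in RNA content as captured, with a median of 6855 to 10400 UMIs per HSC-like cell and 14832 to 24408 per granulocyte progenitor-like cell across mice. Per cell the sum came to 24.2 UMIs in HSC-like, 40.9 in MPP-like, 88.3 in erythroid-like and 103 in granulocyte progenitor-like cells. HSC-like and erythroid-like cells, almost equal in CPM, thus stood far apart per cell.

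Stem cells were compared with committed progenitors in 1 model over all 12503 genes tested, as HSC-like minus the equal-weight mean of the 5 committed classes, with the mouse as a block (edgeR quasi-likelihood test, Benjamini-Hochberg adjustment). Calls required both an adjusted p below 0.05 and a size of 1 or more on the log2 scale. Of the 10 members 1 was called lower and 0 higher, beside 9.65% of all genes called lower and 19.2% called higher. The 1 was Ldha, with a log2 fold change of −1.03 (SE 0.07, edgeR adjusted p = 4.17e-18). Gapdh lay just short of the fold limit at −0.97 (SE 0.05, edgeR adjusted p = 8.72e-26). Without the fold limit 7 members were lower and 1, Pkm at +0.45 (edgeR adjusted p = 1.67e-07), was higher, where 41% and 42.2% of all genes were. Hk2 at +0.22 (edgeR adjusted p = 0.0547) and Pfkl at +0.08 (edgeR adjusted p = 0.111) did not pass. The median over the members was −0.48, and that of all genes tested 0.01.

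How the libraries are scaled moves these values. With library totals in place of TMM factors, which align the bulk of genes between classes, the median of all genes tested shifted from 0.01 to 0.28 and Ldha moved to −0.77, short of the fold limit. Hk1 then stood at −0.03 and Aldoa at −0.06, so these 2 small differences depend on the scale. No member changed sign between the 2 scalings in this comparison. Ldha was negative in all of 24 alternatives that kept the fold limit (−1.09 to −0.66) and called in 14. It was not called without the young male (−0.92), in DESeq2 (−0.96), in cells thinned to 4500 UMIs (−0.91) or without cycling cells (−0.67). When cells were clustered without Harmony batch correction, Gapdh was called (−1.03) and Ldha was not (−0.85). The same held from a single clustering seed (Gapdh −1.10, Ldha −0.96).

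**Figure D2:**
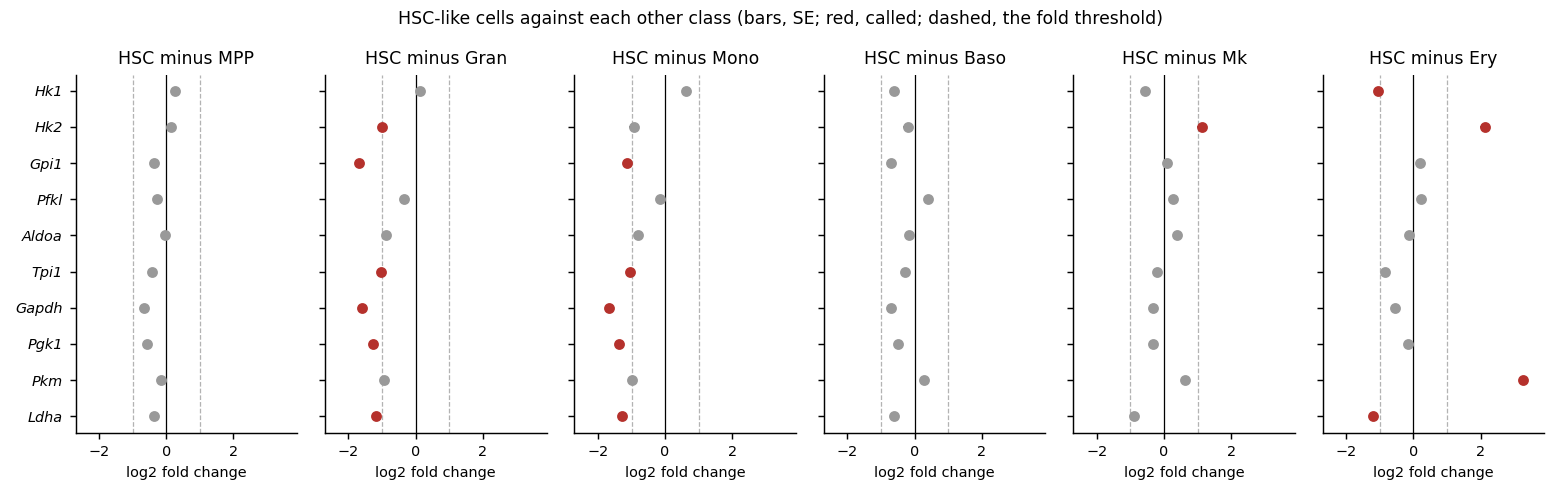
Log2 fold change of each glycolysis enzyme in HSC-like cells against each of 6 other classes, in 1 panel per class, with bars of 1 SE (edgeR, 8 mice; most are hidden by the points), red points for called members and dashed lines at the fold limit. Pkm against erythroid-like cells (3.27) lies farthest to the right, and Gpi1 (−1.69) and Gapdh (−1.59) against granulocyte progenitor-like cells lie far to the left.

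Against granulocyte progenitor-like cells 6 members were called lower in HSC-like cells and 0 higher, beside 14.6% and 20.6% of all genes. They were Gpi1 at −1.69 (SE 0.06), Gapdh at −1.59, Pgk1 at −1.28, Ldha at −1.19, Tpi1 at −1.02 and Hk2 at −1.004, all with edgeR adjusted p of 6.83e-10 or less. Pkm at −0.95 and Aldoa at −0.89 fell short of the fold limit, and Hk1 stood on the other side of 0 at +0.14. Gpi1 and Gapdh were called in all 24 alternatives, whereas the count of members called ranged from 2 (library totals, or each cell weighted equally) to 7. Tpi1 and Hk2, which lay at the limit, were called in 11 and 12 of the 24. Per mouse, 1.43% to 22.7% of HSC-like cells scored as cycling. The share was 74.4% to 96.6% in granulocyte and 90.2% to 100% in monocyte progenitor-like cells. Without cycling cells 3 members were called lower than in granulocyte progenitor-like cells, Gapdh, Gpi1 and Pgk1. The part of cycling in the differences between classes was not tested.

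Monocyte progenitor-like cells gave a similar list, with 5 members called lower in HSC-like cells (15.7% of all genes) and 0 higher (22.3%). Gapdh stood at −1.67, Pgk1 at −1.37, Ldha at −1.28, Gpi1 at −1.13 and Tpi1 at −1.06, with edgeR adjusted p of 1.38e-18 or less. Hk1 was at +0.61 and short of the fold limit, but was called higher with library totals (+1.01). Gapdh was called in all of 23 alternatives, and the count called lower ranged from 1 to 6. Pfkl was at −0.16 here and at −0.34 against granulocyte progenitor-like cells, and both values turn positive with library totals (0.24 and 0.09).

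Against erythroid-like cells members were called in both directions, each count near the share of all genes. Pkm (+3.27, SE 0.10, edgeR adjusted p = 1.48e-31) and Hk2 (+2.13, SE 0.14, edgeR adjusted p = 6.23e-19) were called higher in HSC-like cells, beside 27.4% of all genes. Ldha (−1.20, SE 0.09, edgeR adjusted p = 8.65e-18) and Hk1 (−1.05, SE 0.05, edgeR adjusted p = 1.28e-24) were called lower, beside 17.6%. Pkm was called in all 24 alternatives (1.73 to 4.42) and Hk2 in 23, while Ldha was called in 20 and Hk1 in 15. Of erythroid-like cells 72.9% to 96.4% per mouse scored as cycling, and without cycling cells neither Ldha nor Hk1 was called. Aldoa and Pgk1 at −0.15 each turn positive with library totals (0.18 and 0.17).

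Fewer members separated HSC-like cells from the remaining classes. Only Hk2 was called against megakaryocyte-like cells, higher at +1.13 (SE 0.15, edgeR adjusted p = 3.33e-09, 13.8% of all genes called higher). It kept its call in 22 of 24 alternatives and lost it with marker gates in place of clusters and with each cell weighted equally. Against basophil and mast-like cells 0 members were called (24% of all genes), and against MPP-like cells 0 (13.5%), in the edgeR test and in all 24 alternatives, DESeq2 included. In these 2 comparisons 9 and 7 members had an unadjusted p under 0.05, as had 8790 and 8196 of the 12503 genes. By the adjusted p alone 6 members were lower in HSC-like than in MPP-like cells and 1 higher, beside 34.9% and 27.6% of all genes. Gapdh (−0.66), Pgk1 (−0.56) and Tpi1 (−0.43) were the lowest, and Hk1 (+0.28) was the higher one.

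Hk1, Hk2 and pyruvate kinase divided erythroid-like from granulocyte progenitor-like cells. Hk1 did not set erythroid-like cells (86.8 CPM or more) apart from basophil and mast-like cells, which reached 108 CPM. In a comparison chosen after these levels were seen, erythroid-like minus granulocyte progenitor-like cells, 5 members were called lower, beside 18.9% of all genes, and 1 higher, beside 9.24%. Pkm was lower by 4.22 on the log2 scale (log2 fold change −4.22, SE 0.11, edgeR adjusted p = 2.09e-35) and Hk2 stood at −3.13 (SE 0.12), while Hk1 stood at +1.18 (SE 0.05). Gpi1 (−1.89), Pgk1 (−1.13) and Gapdh (−1.05) were the other 3. Pkm and Gpi1 were called in all 24 alternatives and Hk1, Hk2 and Pgk1 in 23, while Gapdh was called in 20. The 1 alternative that lost Hk1, Hk2 and Pgk1 also lost Gapdh. It weights cells equally and averages log values, so its values are not folds of the sums (Hk2 −0.40). The cause of these losses was not tested. Ldha differed by 0.02 (SE 0.08, edgeR adjusted p = 0.844) between these 2 classes.

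Pklr, the red cell and liver pyruvate kinase, had the reverse pattern of Pkm. Its level was 31.7 to 54.1 CPM with a median of 40.5 in erythroid-like cells, and at most 2.96 CPM in any other class and mouse. After thinning of every cell to 4500 UMIs, a median of 13.1% of erythroid-like cells and 0.886% of HSC-like cells held a Pklr UMI, with 0.152% in granulocyte progenitor-like cells (56.8%, 1.08% and 0.573% before thinning). The thinned share of cells with a Pkm UMI was 13.3% in erythroid-like cells and 79.3% in HSC-like cells, and unthinned it was 39.9% and 91.3%. Within the erythroid-like class Pkm was 6.54, 26.5 and 22.9 CPM in 3 clusters and 230 CPM in the remaining cluster (671 cells). In that last cluster 99.0% of cells were among the top doublet scores of their library, and it also held 1132 CPM of Elane and 1593 CPM of Mpo, both granulocyte genes, against at most 24.7 and 48.3 CPM in the other 3. Pkm against HSC-like cells was also called without this cluster.

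**Figure D3:**
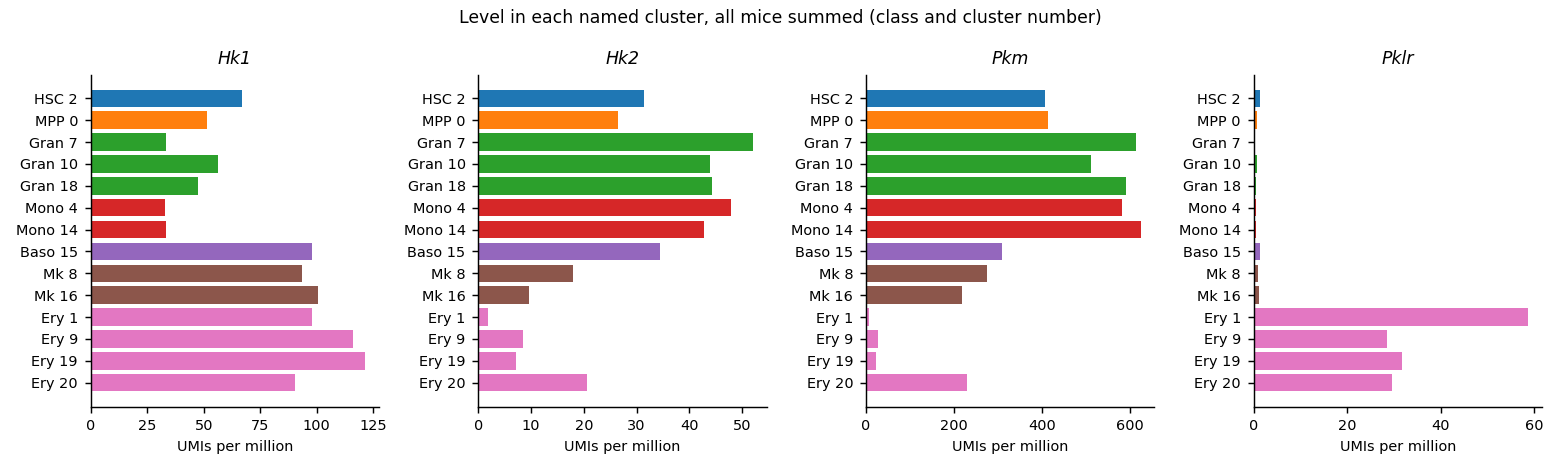
Level of Hk1, Hk2, Pkm and Pklr (CPM, all mice summed, so without an error) in each named cluster, with 1 bar per cluster coloured by class. Of the 4 erythroid-like clusters 3 lie at 6.54 to 26.5 CPM of Pkm, and the remaining cluster, at 230 CPM, is the one whose cells have top doublet scores.

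Enzymes and transporters beside the members filled in the steps that the list leaves out. Of 12 other glycolysis enzymes tested (of 19 listed), 2 were called higher in HSC-like cells than in the committed mean and 2 lower, beside 19.2% and 9.65% of all genes, so the higher count is near that of all genes. The isoform genes Aldoc (+3.603, SE 0.14) and Ldhb (+2.73, SE 0.12), the second aldolase and lactate dehydrogenase subunit, were the higher ones. Ldhb had a median of 127 CPM (106 to 174) in HSC-like cells, 56.7 CPM in granulocyte progenitor-like, 43.1 CPM in MPP-like and 3.41 CPM in erythroid-like cells, and the HSC-like values overlapped those of no other class. Aldoc had a median of 11.4 CPM in HSC-like cells and at most 0.788 CPM in any erythroid-like or granulocyte progenitor-like sum. The lower ones were Ldhc (−2.004) and Eno1b (−1.11). Pgam1, phosphoglycerate mutase, had 170 CPM in HSC-like cells (median), 684 CPM in granulocyte and 804 CPM in monocyte progenitor-like cells and 70.3 CPM in erythroid-like cells, and its lineage value of −0.92 missed the fold limit.

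The transporters split. Glucose transporter genes Slc2a3 (+1.92, SE 0.07) and Slc2a1 (+1.41, SE 0.14) were called higher in HSC-like cells, and Slc2a6 (−1.91) and the lactate transporter gene Slc16a1 (−1.42, SE 0.10) lower, out of 8 tested, in a comparison that called 19.2% of all genes higher and 9.65% lower. Slc2a3 had a median of 37.6 CPM in HSC-like cells (32.7 to 53.6) against at most 5.402 CPM in any granulocyte or monocyte progenitor-like sum. Of 11 glycolysis regulators tested 2 were higher and 0 lower, Meis1 (+2.76), which is also an HSC marker used to name the class, and Pfkfb4 (+1.45), while Hif1a stood at +0.09 (edgeR adjusted p = 0.166). Of 10 hypoxia targets outside glycolysis 2 were higher, Ddit4 (+2.10) and Ndrg1 (+1.38), and 0 lower. The higher counts of these last 2 lists are near the share of all genes called higher.

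Of 16 citric acid cycle genes 5 were called lower and 0 higher, beside the same 9.65% and 19.2% of all genes, with Fh1, fumarate hydratase, at −1.33, Idh3a, an isocitrate dehydrogenase subunit, at −1.32 and Mdh2, malate dehydrogenase, at −1.16. The median over the 16 was −0.74, below that of the glycolysis enzymes (−0.48). All 7 pentose phosphate genes had negative values and 4 were called, among them Taldo1 (−1.30) and Pgls (−1.26). Of 12 genes for pyruvate entry to mitochondria the carrier gene Mpc1 (−1.19) was called lower and Pdk2 (+1.44), a kinase that inhibits pyruvate dehydrogenase, higher.

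Across ages, the HSC-like cells of 4 older mice, 2 old and 2 very old, were compared with those of the 2 young mice over 11640 genes, with sex as a covariate. No member was called at an edgeR adjusted p under 0.05 (0 of 10, beside 10.8% of all genes), 2 had an unadjusted p under 0.05, and DESeq2 also called 0. The median over members was −0.04, as it was over all genes tested.

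Ldha had the largest value of the members in that comparison. Its levels in HSC-like cells were 262.7 CPM in the young male and 338.0 CPM in the young female, 482.4 and 418.8 CPM in the middle-aged male and female, 329.3 and 361.1 CPM in the old pair, and 427.0 and 335.0 CPM in the very old pair. The young male is the lowest of all 8, and the young female lies within the older mice, so the groups overlap in CPM. CPM use library totals, whereas the fold changes between ages are scaled with TMM factors. The log2 fold change of older over young was +0.36 (SE 0.14, edgeR adjusted p = 0.112). Middle-aged minus young was +0.64 (SE 0.15, edgeR adjusted p = 0.0652, 1.58% of all genes called) and very old minus young +0.48 (edgeR adjusted p = 0.0866, 7.05% called). Old minus young, which lies within library series SL19, was not called either. Ldha stayed positive in all of 25 alternatives (0.10 to 0.67) and was called in 6 of them, among them the HSC-like cells without cycling cells (+0.52, adjusted p = 0.00754) and without the young female (+0.67, adjusted p = 0.0201). Without the young male it shrank to +0.13 (adjusted p = 0.776).

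Pgk1 had the lowest value. It was 181.7 and 207.2 CPM in the young male and female, 209.5 and 178.1 in the middle-aged, 138.6 and 149.3 in the old and 154.1 and 152.6 in the very old pair. All 4 older mice lay below both young mice. The difference was −0.30 on the log2 scale (SE 0.11, edgeR adjusted p = 0.0966), and −0.39 for old minus young alone (edgeR adjusted p = 0.0699, 8.83% of all genes called). Without the young female the older minus young value shrank to −0.13, and without the young male it was −0.40. Pgk1 was negative in all of 25 alternatives (−0.40 to −0.13) and called in 5, library totals (−0.39, adjusted p = 0.0219) and leaving out either middle-aged mouse (−0.26 each) among them.

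Gapdh CPM also separated the groups, with 849.7 and 888.4 in the young mice, 978.7 and 807.7 in the middle-aged, 721.7 and 743.7 in the old and 746.0 and 736.0 in the very old. Its fitted difference was −0.15 (SE 0.09, edgeR adjusted p = 0.326), and −0.21 without the young male and −0.03 without the young female. Hk2 stood at +0.27 (SE 0.15, edgeR adjusted p = 0.254), with the young male at 22.0 CPM and the other 7 mice at 26.4 to 36.7. The Hk2 value was +0.06 without the young male and +0.60 without the young female. Pfkl was −0.18, Hk1 +0.13, Gpi1 −0.09, Tpi1 −0.06, Pkm +0.04 and Aldoa −0.02, each within 2 SE of 0.

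**Figure D4:**
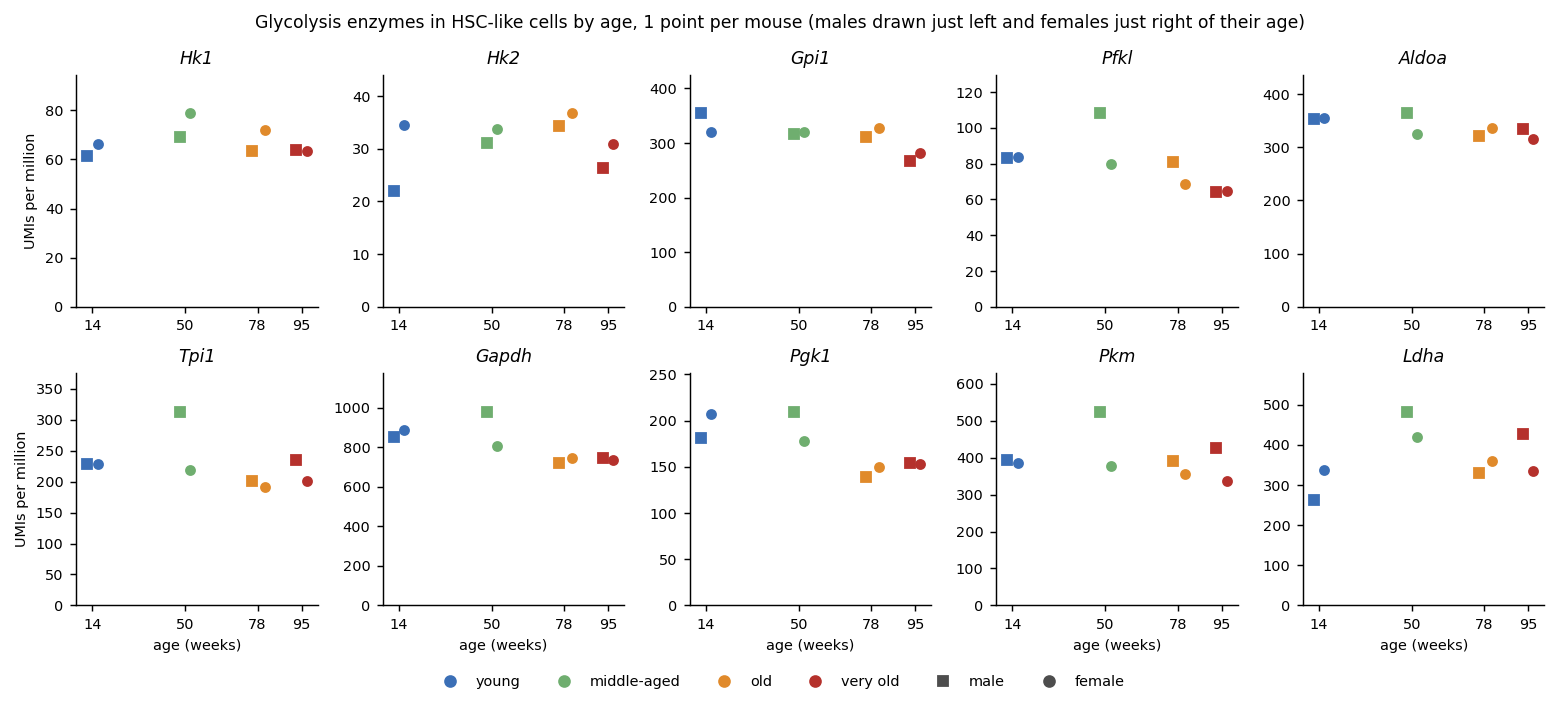
Level of each glycolysis enzyme (CPM) in HSC-like cells against age in weeks, with 1 point per mouse, males (squares) just left and females (circles) just right of their age. Ldha is lowest in the young male (263 CPM) and highest in the middle-aged male (482 CPM), and Pgk1 of the 4 older mice (139 to 154 CPM) lies below both young mice.

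The HSC-like cells themselves differed in captured RNA and in composition between mice. Their median was 9170 and 8670 UMIs per cell in the young male and female and 6855 to 8049 in the 4 older mice. Of the young mice 13.2% and 22.7% of HSC-like cells scored as cycling, and of the older mice 1.43% to 11.9%. The summed level of the 8 MPP markers was 1276 and 1014 CPM in the young and 525 to 703 CPM in the 4 older mice, and that of the 15 HSC markers 1419 and 1250 against 1528 to 2133 CPM. Monocyte progenitor markers (467 and 473 against 254 to 366 CPM), lymphoid markers (34.5 and 58.5 against 4.73 to 15.03) and macrophage markers (30.1 and 38.5 against 3.87 to 16.7) were also higher in both young than in all 4 older mice. Megakaryocyte markers (246 and 265 against 321 to 400) and, narrowly, dendritic markers were lower. Granulocyte progenitor (1401 to 2262 CPM in these 6 mice), erythroid and the other marker sets overlapped. Without cycling cells Ldha was larger, as given above, while Pgk1 stood at −0.19 (adjusted p = 0.225), Gapdh at −0.02 (0.919) and Hk2 at +0.34 (0.231), and 0 of the other members were called. The part of the marker shifts in the age values was not tested.

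Single genes of the neighbouring lists were called with age in HSC-like cells, beside 6.86% of all genes called higher and 3.96% lower. Ndrg1 (+0.69, SE 0.13, edgeR adjusted p = 0.00289) was the 1 of 10 hypoxia targets called, and 0 of 7 transporters were called, with 2 at an unadjusted p under 0.05. Those that fell were Fh1 (−0.48) and Sdhb (−0.37) of 16 citric acid cycle genes, Tkt (−0.48) and Taldo1 (−0.36) of 7 pentose phosphate genes, Pgam1 (−0.43, SE 0.12) of 10 other glycolysis enzymes, Egln1 (−0.52) of 11 regulators and Pdk1 (−0.42) of 12 genes for pyruvate entry. Egln1 encodes the oxygen sensor that marks hypoxia-inducible factors for degradation, and Pdk1 a pyruvate dehydrogenase kinase.

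In the other 6 classes 0 members were called for older over young by edgeR. The share of all genes called was 0.453% in MPP-like, 0.233% in granulocyte progenitor-like, 0.136% in monocyte progenitor-like, 0.0877% in basophil and mast-like, 2.86% in megakaryocyte-like and 0.016% in erythroid-like cells. Members with an unadjusted p under 0.05 numbered 3 in monocyte progenitor-like cells, 2 in erythroid-like cells, 1 each in granulocyte progenitor-like and megakaryocyte-like cells and 0 in MPP-like and basophil and mast-like cells. Pfkl in monocyte progenitor-like cells had the lowest of these (−0.33, SE 0.08, edgeR adjusted p = 0.175).

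Age by age, 2 members were called in 1 class each. Pkm fell in very old erythroid-like cells (−0.69, SE 0.08, edgeR adjusted p = 0.00652, 0.746% of all genes called), with 19.6 CPM in the very old male and 17.7 in the very old female against 32.2 and 31.9 in the young mice. The middle-aged mice at 42.2 and 46.4 and the old mice at 38.9 and 40.5 CPM lay above the young mice. It was −1.44 without the cluster of top doublet scores and −1.60 with likely doublets removed from all clusters, but +0.61 (adjusted p = 0.704) in erythroid-like cells that did not score as cycling. Leaving out either middle-aged mouse ended the call with the value near −0.69 (−0.69 and −0.70). Weighting cells equally, which averages log values, also ended it, with a value of −0.14 (limma adjusted p = 0.0601). Some markers of other cell types were also lower in the erythroid-like sums of the very old mice. Granulocyte progenitor markers stood at 823 and 997 CPM (1065 to 1513 in the other 6 mice). Monocyte progenitor markers stood at 179 and 213 CPM (218 to 358) and MPP markers at 41.0 and 43.8 CPM (53.2 to 91.4). HSC markers were higher, at 107 and 93.4 CPM (79.1 to 91.7). Megakaryocyte markers (110 and 89.7 against 95.5 to 157) and erythroid markers (10041 and 8711 against 6515 to 8779) overlapped. The median mitochondrial share of erythroid-like cells was 5.55% and 5.81% in the very old and 4.49% to 5.10% in the other mice, and 96.4% and 95.3% against 72.9% to 94.4% scored as cycling. Pkm also differed between the erythroid-like clusters, as given above, so the class sum depends on their mix. The part of the markers, of this mix and of the mitochondrial share in the Pkm value was not tested. Pfkl fell in very old monocyte progenitor-like cells (−0.48, SE 0.09, edgeR adjusted p = 0.0187, 0.758% called), a call that did not hold when either young or either very old mouse was left out (−0.43 to −0.52, adjusted p from 0.109 to 0.305), with marker gates (−0.58, adjusted p = 0.0785) or in thinned cells (−0.47, adjusted p = 0.138). The median mitochondrial share of monocyte progenitor-like cells was 5.04% and 5.22% in the very old and 4.18% to 4.94% in the other mice, and its part was not tested. Both rest on the 2 mice of the other library series.

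Between the sexes, Hk2 was higher in females in granulocyte progenitor-like cells (+0.34, SE 0.07, edgeR adjusted p = 0.0351, 0.442% of all genes called) and in megakaryocyte-like cells (+0.58, SE 0.12, edgeR adjusted p = 0.0232, 0.595% called). In megakaryocyte-like cells the female of each age lay above the male, at 16.1 against 11.8, 17.9 against 12.98, 17.2 against 11.3 and 15.7 against 9.34 CPM. DESeq2 gave nearly the same values and called neither (+0.33, adjusted p = 0.279, and +0.58, adjusted p = 0.345), and neither was called in cells thinned to 4500 UMIs (+0.23 and +0.51, adjusted p = 0.609 and 0.372), without cycling cells (0.385 and 0.276) or with cells weighted equally (0.246 and 0.0976). The first was also lost without Harmony (0.114), with doublets removed (0.053) and from a single seed (0.127), and the second with marker gates (0.384). Without either middle-aged or either very old mouse both calls were lost (adjusted p from 0.0723 to 0.339 in granulocyte progenitor-like and from 0.102 to 0.151 in megakaryocyte-like cells), and the first also without the young male (0.0551). In HSC-like cells Hk2 stood at +0.26 (edgeR adjusted p = 0.405) and 0 members were called by sex (0.593% of all genes), with Hk2 and Pkm (−0.24) at an unadjusted p under 0.05.

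**Figure D5:**
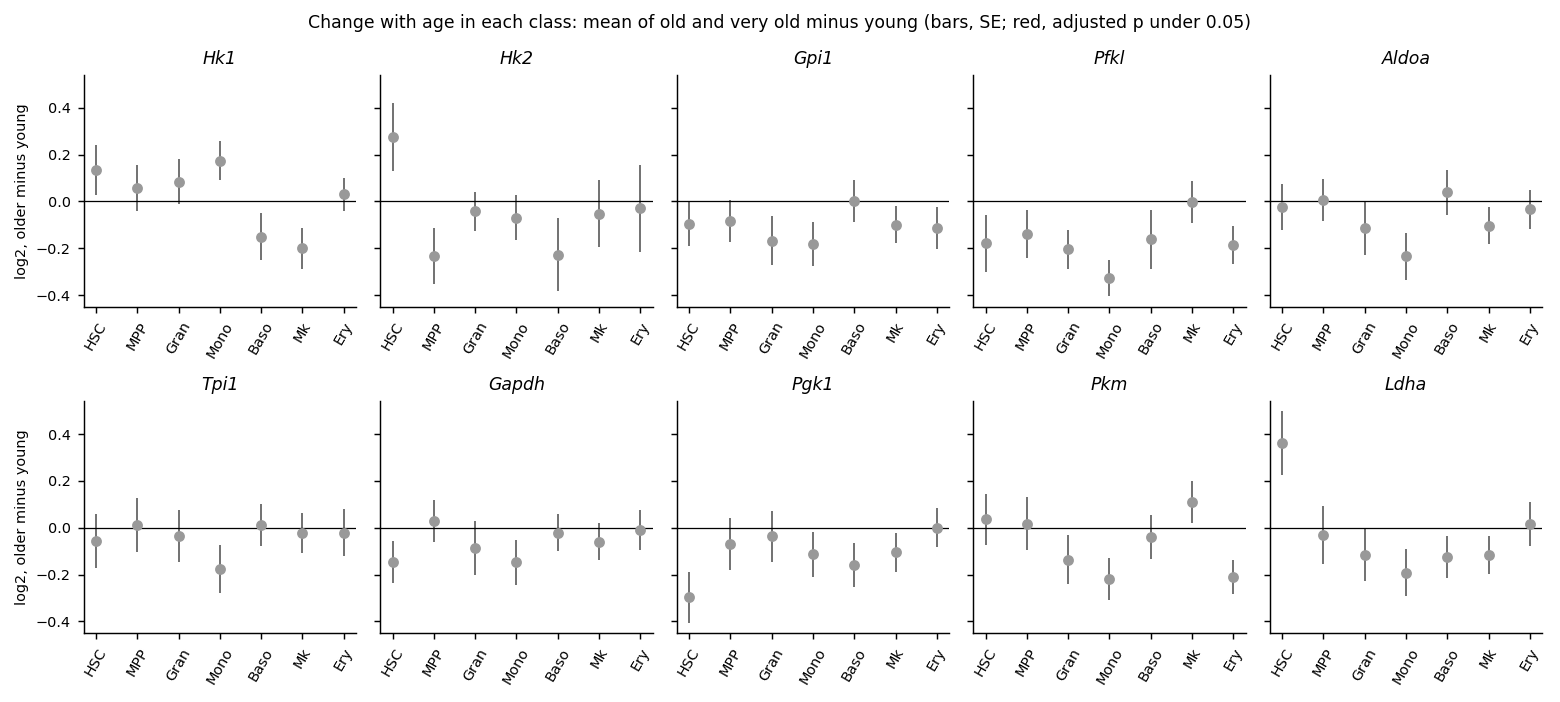
Log2 fold change of older (old and very old) over young mice for each glycolysis enzyme in each class, with bars of 1 SE (edgeR) and every point grey because none was called. Ldha in HSC-like cells (0.36) and Pgk1 in HSC-like cells (−0.30) lie farthest from 0 among the HSC-like values, and Ldha lies between −0.19 and 0.01 in the other classes.

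Whether age acts differently on stem cells and on committed progenitors was tested as a difference of differences, older over young in HSC-like cells minus the same in the mean of the committed classes, over 12737 genes. Of the 10 members 1 was called higher and 0 lower, beside 3% and 4.15% of all genes. This was Ldha at +0.48 (SE 0.12, edgeR adjusted p = 0.00937). The spread in this test is pooled over the classes, so it is not that of HSC-like cells alone. Its own age values were +0.36 in HSC-like cells, −0.19 in monocyte progenitor-like, −0.12 in granulocyte progenitor-like, basophil and mast-like and megakaryocyte-like cells, and +0.01 in erythroid-like cells. Hk2 at +0.35 (edgeR adjusted p = 0.228) and Pgk1 at −0.20 (edgeR adjusted p = 0.234) had an unadjusted p under 0.05 and did not pass.

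The Ldha result held in 20 of 25 alternatives, with values of 0.18 to 0.73. It rests on the young male, whose HSC-like Ldha was the lowest, since without that mouse the value was +0.29 (adjusted p = 0.509). It was also not called without the old female (+0.43, adjusted p = 0.0612), without the very old male (+0.39, adjusted p = 0.106), for the old mice alone (+0.33, adjusted p = 0.153), or with classes from marker gates (+0.18, adjusted p = 0.475). With library totals Pgk1 was called as well (−0.28, adjusted p = 0.0347).

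Cell-to-cell variability, which the study follows with age, was measured in HSC-like cells thinned to 4500 UMIs as the log2 variance of a gene over the trend for its mean. Of the 10 members 0 were called by limma, beside 0.373% of 5088 genes. The 2 at an unadjusted p under 0.05 pointed in opposite directions, Hk2 at +0.11 (SE 0.04, limma adjusted p = 0.53) and Gapdh at −0.14 (SE 0.05, limma adjusted p = 0.535). Ldha stood at +0.05 (SE 0.06) and Pgk1 at +0.05 (SE 0.03).

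Over the 56 sums of 7 classes and 8 mice, the members did not move as 1 block. These sums share mice and scale, so the correlations are given as descriptions. Gapdh and Pgk1 followed each other most closely (Pearson r = 0.94), as did Hk2 and Pkm (0.89), whereas Hk1 ran against Pkm (−0.68). With the mean of all 10, Pgk1 correlated at 0.94, Gapdh at 0.91, Gpi1 at 0.87 and Aldoa at 0.85, Hk2 at 0.73, Pkm at 0.69, Tpi1 at 0.67, Pfkl at 0.50, Ldha at 0.44 and Hk1 at −0.59. Each member is itself part of that mean, which raises its value, so these values cannot be set beside those of other genes. Among 7641 genes with a mean of 10 CPM or more, those outside the lists with the pattern most like that mean were Nme2 (0.92), Pgs1 (0.92), Krtcap2 (0.91), Pdia6 (0.90) and Gusb (0.90).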

How the data were processed

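RNA was measured by 10x Chromium 3′ single-cell sequencing of c-Kit-positive, lineage-negative cells of the bone marrow of 8 wild-type mice. The authors aligned the reads to mm10 and deposited 1 matrix of raw UMI counts per gene and cell for each mouse. The file headers name Cell Ranger 6.0.0. The labels and the series text name different kit versions, so none is given here. Library totals were 83062003 to 150135029 UMIs, and 3′ counts do not allow levels of different genes to be compared.

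Cells with 200 or more detected genes were scaled to 10000 UMIs and clustered (scanpy 1.11.5, 2000 variable genes without metabolic, sex-linked and mitochondrial genes, 30 components, Harmony over libraries, Leiden resolution 0.8, best of 10 seeds). A cluster was named where 3 or more listed markers of a class were in its top 50 genes, unless another class had more markers among its top 10 genes or its median UMI count was under 1 in 3 of the library median. Clusters with a median mitochondrial share over 10% (9.66% to 21.6% of the cells of a mouse) stayed unnamed, and both this limit and that on UMIs were chosen after seeing the data. Scrublet called under 0.5% doublets in 4 of 8 libraries and so did not work there, and doublets were kept. Removing the cells with the highest scores was an alternative.

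UMIs were summed per mouse and class (20 or more cells) and tested with edgeR 4.0.16 (R 4.3.3) across all genes, TMM factors, quasi-likelihood, Benjamini-Hochberg adjustment, with the mouse as a block between classes and sex as a covariate between ages. The SE printed with edgeR values is the absolute log2 fold change over the square root of the F statistic of the test. It therefore restates that test and is not a separate measure of spread. The p-values rest on 8 mice. In the tests between classes and of the interaction, several sums of each mouse enter the estimate of spread. Those p-values therefore do not measure the spread between mice alone. DESeq2 1.42.0 and limma 3.58.1 served as alternatives, limma also for variability. Some alternatives left the sums of a class unchanged, such as removing an erythroid-like cluster for megakaryocyte-like cells. Clusters of the other clustering settings took the main class that held most of their cells. Counts of alternatives are therefore not counts of independent checks. The edgeR tests between classes, between ages and of their interaction, and the limma step of the variability test, were tested on simulated data. Named genes were all 10 members, at most 3 called genes of each other list with the largest fold change per comparison, and the 5 genes outside the lists closest in pattern. Eno1b, Slc2a1, Pgam1 across classes, Hif1a and Pklr were named after their values were seen. The members and lists were chosen with earlier results of these data known.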

Additional observations from a re-analysis of the deposited data

Results flagged for a closer look

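In sets of 8 mice, 1 for each member and class, and of the 4 older mice for HSC-like cells, 80 sets of member values were examined for a single value far from the others, and 11 were found. Chance gives about 1 in 20 independent groups, but these sets share the same mice, so the 11 cannot be read against that rate. In 10 of the 11 the value was that of the middle-aged male, which lay above the other 7 mice of the class.

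Tpi1 in this mouse was 313 CPM in HSC-like cells (192 to 235 in the other mice), 382 in MPP-like (249 to 288), 420 in granulocyte progenitor-like (304 to 357) and 476 in monocyte progenitor-like cells (300 to 380). Pfkl was 108 CPM in HSC-like (64.4 to 83.7) and 117 CPM in MPP-like cells (72.4 to 91.8). Pkm was 525 CPM in MPP-like (366 to 417) and 365 CPM in basophil and mast-like cells (269 to 313). Gapdh was 1432 CPM in MPP-like cells (1076 to 1226), and Ldha 1062 CPM in monocyte progenitor-like cells (514 to 742). In this mouse 78.1% of MPP-like cells scored as cycling (28.4% to 52.1% in the others). The share of its HSC-like cells, 22.3%, lay within that of the others (1.43% to 22.7%). The part of cycling in these values was not tested.

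The 1 other was Hk1 in HSC-like cells of the old female, at 72.0 CPM beside 63.4 to 63.9 in the other 3 of the 4 older mice.

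The age difference of Ldha differed between HSC-like cells and the committed classes by 0.48 on the log2 scale (edgeR adjusted p = 0.00937), which the interaction term tested. Outside the measurements used above, a second gene entry named Aldoa, ENSMUSG00000114515 (chr7:126800790-126809108, − strand, GRCm38), held 37 UMIs in all 8 libraries together, 1 to 8 in each.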

How the results depend on the processing

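Of the called results 1 turned direction, Pkm in very old erythroid-like cells, which went from −0.69 to +0.61 (adjusted p = 0.704) without cycling cells. For HSC-like cells against the committed classes, the 1 member called lower became 0 in DESeq2, with library totals, with no filter on low counts, with marker gates, without cycling cells, in thinned cells and with cells weighted equally (limma), and leaving out 1 mouse gave 0 to 1. Without Harmony and from a single seed the count stayed at 1, with Gapdh called in place of Ldha. With the adjusted p alone 1 was higher and 7 lower.

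For older over young HSC-like cells, where 0 were called, 1 was called higher with no filter, without Harmony, without cycling cells, in thinned cells and from a single seed, and 1 lower with library totals or a single seed and 2 with limma. Leaving out 1 mouse gave 0 to 1 in each direction. In monocyte progenitor-like cells 1 was called lower with no filter and for very old minus young (0 to 1 without 1 mouse), and in erythroid-like cells 1 lower for very old minus young. In the interaction, with 1 called higher, 2 were without Harmony and for very old minus young, and 0 with marker gates and for old minus young (0 to 2 without 1 mouse), and 1 was called lower with library totals. The cause was not tested.

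The mouse was a block between classes because each mouse gave every class. With no replicate block, 0 members were higher and 1 lower, with Ldha at −1.03 (adjusted p = 1.18e-13). No paired analysis was possible because, between ages, a replicate number stands only for the sex, already a covariate. Leaving out cycling cells removed the monocyte progenitor-like class, because a mouse had under 20 of its cells that did not score as cycling. The committed mean of that alternative therefore lacks this class.

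Each age has 1 male and 1 female, very old mice form a library series of their own, and HSC-like cells are shallowest (6855 to 10400 UMIs per cell in the median). With 2 mice per age, an adjusted p above the threshold does not show that a level was the same, and Hk2, the scarcest member, rests on the fewest counts.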
